A study of Mus musculus with 6 samples.

Results

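Cell cycle and DNA replication genes were followed in mouse pancreatic acinar cells, which make digestive enzymes, with and without the floxed Trip12 alleles. Trip12 encodes an E3 ubiquitin ligase. The 46 genes were taken as a named list, paired with the Ensembl identifiers of the count tables by symbol, and all 46 were found among the 55414 identifiers. They were read in 4 roles: 12 genes of origin licensing and the replicative helicase, 7 of the replication fork and nucleotide supply, 12 of G1 and its regulators, and 15 of the passage from S phase to mitosis. Controls carried a Pdx1-driven Cre recombinase with wild-type Trip12 (Pdx1Cre;Trip12+/+), and knockouts carried the same Cre with both Trip12 alleles floxed (Pdx1Cre;Trip12fl/fl). All 6 preparations were from adults, were untreated, and gave 1 poly-A library each, 3 per genotype. The Pdx1 promoter is active in the progenitors of acinar, duct and endocrine cells and not in leukocytes or stroma, which would keep their Trip12. How many animals went into a preparation is not given in the labels, so p-values measure the spread between these preparations.

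A cell that divides first licenses its replication origins, by loading the Mcm2-7 helicase with Cdc6 and Cdt1. D-type cyclins with Cdk4 or Cdk6, and then cyclin E with Cdk2, inactivate the retinoblastoma protein Rb1 and release E2F factors, which transcribe the replication genes. Genes of mitosis are transcribed later, in large part through the DREAM and MuvB complexes and NF-Y. Adult acinar cells divide rarely.

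The libraries held 31019500 to 34041901 gene counts, and the submitters numbered the preparations 1 to 3 in both genotypes. Trip12 itself stood at 29.0, 22.3 and 26.4 CPM (counts scaled to a common library size, here with edgeR's TMM factors) across the controls against 14.4, 14.7 and 13.0 across the knockouts (log2 fold change -0.89, edgeR quasi-likelihood test, Benjamini-Hochberg adjusted p 0.0256). Acinar identity was plain in every library: the 11 acinar markers summed to between 314652 and 471185 CPM, with none at 0. In this sum of TMM-scaled CPM all 3 knockouts lay below all 3 controls. The TMM factors, which divide the counts, were 1.02, 0.785 and 0.809 in the controls and 1.19, 1.12 and 1.16 in the knockouts. The sum was not computed without these factors. Singly, Cela1, Cel and Pnlip were lower without overlap in TMM-scaled CPM, Rbpjl was higher without overlap, and the rest overlapped. Raw counts of Cela1, Cel and Pnlip overlapped between genotypes. Rbpjl stood at 183, 280 and 180 CPM across the controls against 486, 658 and 370 across the knockouts. Xist counts were 2118 and 2440 in controls 2 and 3 and at most 5 counts in the other 4 libraries, so sex and genotype were partly confounded. A fit without control replicate 1 leaves only Xist-high controls against Xist-low knockouts, and there sex and genotype cannot be told apart. Leukocyte and stromal markers varied widely among libraries of 1 genotype, and their values are given beside the results they touch.

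Promoter letters of the members are shown because the roles differ in some of them. A total of 37 of the 46 members had a promoter window in the RefSeq table (build GRCm38.p6), from 250 bases before to 50 bases after the start. Each window was searched on both strands for an E2F motif (TTTCCCGC, TTTCGCGC, TTTGCCGC or TTTGGCGC), for the CHR motif of the MuvB complexes (TTTGAA) and for the CCAAT box bound by NF-Y. Matches of different motifs were counted apart and may overlap. The E2F letters were found in 6 of 9 licensing genes, 1 of 7 fork genes, 1 of 8 G1 genes and 1 of 13 mitosis genes, against 2.61% of the 27025 genes in the table. CHR letters were found in 9 of 13 mitosis genes, 2 of 9 licensing genes and none of the 7 fork or 8 G1 genes, against 20.2% of all genes. CCAAT was found in 12 of 13 mitosis genes, 7 of 9 licensing genes, 5 of 7 fork genes and 4 of 8 G1 genes, against 41.1% of all genes. The 9 mitosis genes and the 2 licensing genes with CHR letters also held CCAAT, a combination found in 7.97% of all genes. These matches are descriptions of letters, not measured binding sites.

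The 150 bases before the start are printed for Mcm6, a helicase subunit with repeated E2F letters, for Mcm2, the tested licensing gene with the smallest unadjusted p between genotypes, and for Top2a and Mki67, the mitosis genes with the highest CPM. Capitals mark E2F, CHR and CCAAT letters on either strand, and every sequence is on its gene's strand. Mcm6 lies at chr1:128359706-128359855 (minus strand), Mcm2 at chr6:88898781-88898930 (minus strand), Top2a at chr11:99024190-99024339 (minus strand) and Mki67 at chr7:135716380-135716529 (minus strand), all in GRCm38.p6.
Mcm6: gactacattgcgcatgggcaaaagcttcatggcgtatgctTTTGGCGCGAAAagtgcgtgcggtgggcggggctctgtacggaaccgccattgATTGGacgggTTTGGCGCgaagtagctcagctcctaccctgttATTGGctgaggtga
Mcm2: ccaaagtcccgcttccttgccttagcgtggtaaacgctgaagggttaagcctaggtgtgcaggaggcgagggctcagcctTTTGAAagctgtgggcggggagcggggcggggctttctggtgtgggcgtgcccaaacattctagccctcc
Top2a: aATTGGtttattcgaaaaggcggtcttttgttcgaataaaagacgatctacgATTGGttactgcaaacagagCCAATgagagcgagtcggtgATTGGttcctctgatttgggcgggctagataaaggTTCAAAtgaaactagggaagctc
Mki67: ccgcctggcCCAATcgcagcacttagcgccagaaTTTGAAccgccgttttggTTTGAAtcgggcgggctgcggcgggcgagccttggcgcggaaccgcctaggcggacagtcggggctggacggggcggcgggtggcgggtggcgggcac
Mcm6 and Mcm2 thus share a role but not these letters in the stretch shown, while Top2a and Mki67 both hold CHR and CCAAT letters.

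Per kilobase of exon, 4 of the 5 most abundant members over the 6 libraries were G1 genes (Cdk4, Ccnd2, Cdkn1b and Ccnd3), with Pcna the other, and the lowest was the licensing gene Mcm10. Cdk4, the catalytic partner of D cyclins, had 5.58 CPM per kb in control and 5.44 in knockout. Pcna, the sliding clamp of the polymerases, had 3.74 and 3.35 CPM per kb, and Cdkn1b, the Cdk inhibitor p27, had 3.72 and 3.05. The most abundant mitosis gene by this measure was Aurka, a centrosomal kinase, at 0.257 CPM per kb in control and 0.277 in knockout. In the mitosis role 13 of 15 genes averaged under 1 CPM over the 6 libraries, against 5 of 19 replication genes and 2 of 12 G1 genes.

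**Figure D1:**
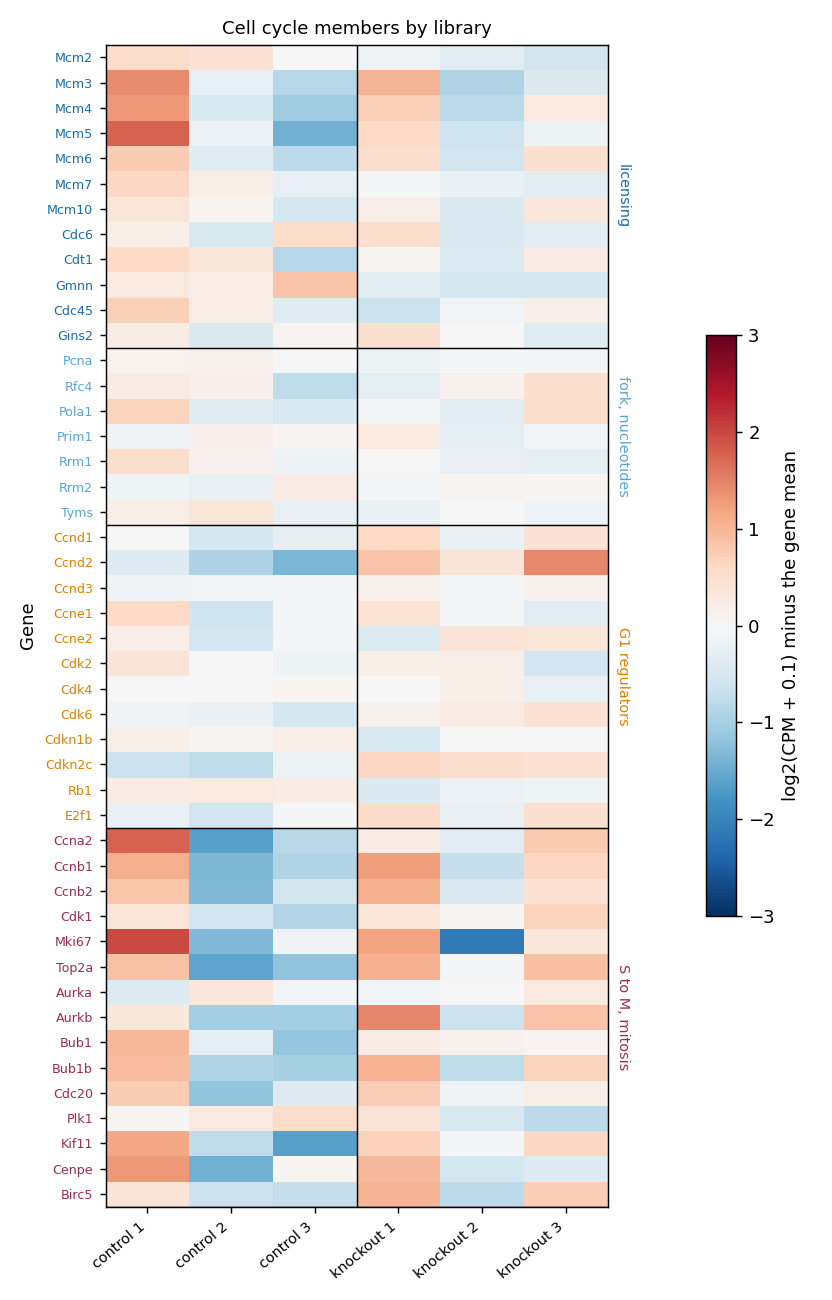
Levels of the 46 members in the 6 libraries, as log2(CPM + 0.1) minus the gene's mean over libraries (color), with 1 row per gene and 1 column per library, grouped by role. Within each genotype replicate 1 is the reddest column in most mitosis rows, and the G1 rows Ccnd2, Cdkn2c and Cdk6 are redder in all 3 knockouts than in all 3 controls.

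Knockout was compared with control by edgeR's quasi-likelihood test over all 13115 genes that passed its filter on low counts, and a gene is called at a Benjamini-Hochberg adjusted p under 0.05. A total of 36 members passed the filter, and the other 10, of which 6 are mitosis genes, were too low to be tested. No member was called in this edgeR test, against 0.945% of all tested genes (0.465% called higher and 0.48% called lower). The unadjusted p was under 0.05 for 7 of 36 members, against 16.7% of all genes. Of these, Ccnd1, Ccnd2, Cdk6 and Cdkn2c were higher, against 8.45% of all genes, and Mcm2, Gmnn and Rb1 were lower, against 8.27%. The groups did not overlap in 9 of the 36, against 22.9% of all genes, with 4 higher in knockout (12.0% of all genes) and 5 lower (10.9%). The replicate numbers were taken to pair the preparations from correlations in these same data, as set out with the processing. Blocked p-values do not allow for that choice. With the number as a block 2 members were called, against 5.99% of all genes: Cdkn2c higher (3.4% of all genes) and Mcm2 lower (2.58%). A block also left 9 members at an unadjusted p under 0.05, against 22.4% of all genes. With a term for sex in place of the block 0 of 36 members were called, Mcm2 and Cdkn2c included, where 21 of 13115 genes were called. DESeq2's Wald test called 2 members, Ccnd2 and Cdkn2c, against 4.53% of all genes, and limma-voom called none. Fits without control replicate 1 and without a filter called 2 members each, against 3.41% and 3.3% of all genes, and library totals in place of TMM factors gave 4, all higher, where 11.0% of all genes were called higher and 11.6% in either direction. These shares, pooled over the roles, lie near those of all genes. By role, the unadjusted p without a block was under 0.05 for 2 of 9 licensing, 0 of 7 fork, 5 of 11 G1 and 0 of 9 mitosis genes (16.7% of all genes). The groups did not overlap in 2, 1, 6 and 0 of them, in the same order (22.9% of all genes). Differences between roles were not tested.

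The licensing genes are taken first. Mcm2, a subunit of the replicative helicase, stood at 7.02, 6.41 and 4.69 CPM across the controls against 4.29, 3.80 and 3.22 across the knockouts, in the order of replicates 1 to 3 that is kept throughout. In TMM-scaled CPM every knockout was below every control. Each knockout was below the control of its number by 0.54 to 0.76 on the log2 scale. The TMM factors were 1.02, 0.785 and 0.809 in the controls and 1.19, 1.12 and 1.16 in the knockouts. Raw counts of Mcm2 overlapped, at 223, 156 and 129 across the controls against 160, 133 and 120 across the knockouts. Over the alternative fits its log2 fold change ran from -0.90 to -0.28. The means were 6.04 CPM ± 1.21 (SD, n = 3) and 3.77 CPM ± 0.536, for a log2 fold change of -0.68 (SE 0.20, edgeR adjusted p 0.153). With the replicate block Mcm2 fell, by the blocked edgeR test (log2 fold change -0.67, SE 0.18, adjusted p 0.0473). The blocked call was lost without replicate 1 (adjusted p 0.125) or replicate 2 (adjusted p 0.338) of both genotypes and kept without replicate 3 (adjusted p 0.0433).

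Gmnn encodes geminin, which binds Cdt1 and prevents a second round of licensing. It stood at 1.20, 1.11 and 1.82 CPM across the controls against 0.751, 0.628 and 0.644 across the knockouts, again without overlap. Each library held between 22 and 50 counts of it, and raw counts overlapped (38, 27 and 50 against 28, 22 and 24). The difference did not pass the edgeR test (log2 fold change -1.02, SE 0.39, adjusted p 0.238).

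Mcm7, another helicase subunit, stood at 5.76, 4.19 and 3.09 CPM across the controls against 3.59, 3.20 and 2.90 across the knockouts, with overlapping groups (log2 fold change -0.43, SE 0.25, edgeR adjusted p 0.435). Its counts are uncertain, because in the GENCODE M21 annotation it overlaps Cops6 and Ap4m1 on the opposite strand. STAR sets aside reads that fall on more than 1 gene as ambiguous, here 3.29% to 3.63% of all reads, so reads from shared exons may be missing. The 4 remaining subunits differed more among libraries of 1 genotype than between genotypes. Mcm5 stood at 2.83, 0.657 and 0.218 CPM across the controls against 1.21, 0.457 and 0.671 across the knockouts. Mcm3 ranged from 0.473 to 2.68 CPM in control and from 0.457 to 2.01 in knockout, and Mcm4 from 0.582 to 3.43 and from 0.714 to 2.25. Mcm6 ranged from 1.45 to 4.44 CPM in control and from 1.71 to 3.70 in knockout. In all 4 of these subunits replicate 1 was the highest library of each genotype.

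The loading factors were low. Cdt1 ranged from 0.473 to 1.48 CPM in control and from 0.685 to 1.13 in knockout, and Cdc6 from 0.164 to 0.436 and from 0.171 to 0.429. Mcm10, Cdc45 and Gins2, which turn the loaded helicase into a moving one, stayed under 0.6 CPM in every library and did not pass the filter. Replicate 1 was the highest library in 10 of the 12 licensing genes in control and in 9 of 12 in knockout. The summed leukocyte markers, given with the mitosis genes, were highest in the same libraries. So were the summed stromal and endothelial, islet and erythroid markers, while the acinar and duct sums were not highest there in both genotypes.

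The fork and nucleotide genes varied less. Pcna stood at 9.13, 9.32 and 8.43 CPM across the controls against 7.67, 8.22 and 8.21 across the knockouts. The groups did not overlap, but the step between them was small, with means of 8.96 CPM ± 0.469 (SD, n = 3) and 8.03 CPM ± 0.317. Its log2 fold change was -0.16 (SE 0.13), with an edgeR adjusted p of 0.590, and it was 0.25 when library totals replaced the TMM factors.

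Ribonucleotide reductase, which makes deoxynucleotides, has a large subunit encoded by Rrm1 and a small one encoded by Rrm2. Rrm1 stood at 5.73, 4.27 and 3.53 CPM across the controls against 3.99, 3.31 and 3.22 across the knockouts (log2 fold change -0.36, SE 0.22, edgeR adjusted p 0.464). Rrm2 stood at 4.28, 4.07 and 5.67 CPM across the controls against 4.58, 5.00 and 4.96 across the knockouts (log2 fold change 0.05, SE 0.18, edgeR adjusted p 0.924). Both subunits overlapped between genotypes, neither passed the test, and the sign of Rrm1 turned with library totals (0.021).

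Tyms, thymidylate synthase, averaged 3.18 CPM ± 0.647 (SD, n = 3) over the controls against 2.68 CPM ± 0.169 over the knockouts, also with overlap, and its log2 fold change was -0.25, or 0.16 with library totals. Pola1, the catalytic subunit of DNA polymerase alpha, Prim1, a primase subunit, and Rfc4, of the clamp loader, lay between 0.545 and 1.80 CPM in every library. Over the 16 tested replication genes the median log2 fold change was -0.20, with 12 below 0, beside 0.02 over all tested genes, and it was 0.19 with library totals. That scaling raised the median of all genes by 0.41.

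The G1 genes held the 2 largest fitted differences among the members, in Ccnd2 and Cdkn2c. Ccnd2, cyclin D2, stood at 30.6, 20.9 and 15.3 CPM across the controls against 72.1, 51.8 and 108 across the knockouts. The lowest knockout was above the highest control, and knockout replicate 3 was the highest library although control replicate 3 was the lowest. The mean was 22.2 CPM ± 7.73 (SD, n = 3) over the controls against 77.4 CPM ± 28.6 over the knockouts, a ratio of 3.48. Neither edgeR fit called it (log2 fold change 1.80, SE 0.35, adjusted p 0.0698, and 0.0558 with the block). DESeq2's Wald test gave a Benjamini-Hochberg adjusted p of 4.35e-07, and limma-voom gave 0.0526. Among the edgeR fits that each left out 1 library, only the fit without control replicate 1 called it (adjusted p 0.0345), and the adjusted p was 0.246 without control replicate 2. With a term for sex the log2 fold change was 1.34 (adjusted p 0.378). In the GENCODE M21 annotation Ccnd2 overlaps a pair of antisense genes, Gm43126 and 9330179D12Rik, so reads from any shared exon would be set aside as ambiguous.

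Ccnd1, cyclin D1, stood at 6.90, 4.72 and 5.63 CPM across the controls against 10.5, 5.94 and 9.28 across the knockouts. Each knockout was above the control of its number, but the groups overlapped (log2 fold change 0.57, SE 0.23, edgeR adjusted p 0.269, and 0.0616 with the block). Ccnd3, cyclin D3, stood at 17.7, 18.2 and 18.5 CPM across the controls against 21.0, 18.7 and 21.1 across the knockouts, for an edgeR log2 fold change of 0.16 (SE 0.12, adjusted p 0.551). Cyclin D2 had the largest fitted difference of the 3 D cyclins, and the differences among them were not tested.

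Their kinase partners were unlike each other in level. Cdk4 averaged 18.1 CPM ± 0.456 (SD, n = 3) over the controls against 17.7 CPM ± 2.31 over the knockouts, with overlap. Cdk6 stood at 6.08, 5.67 and 4.51 CPM across the controls against 7.16, 7.79 and 8.80 across the knockouts, with no overlap (log2 fold change 0.55, SE 0.17, edgeR adjusted p 0.157). Cdk6 overlaps a pair of antisense genes, Gm17590 and Gm42435, in the same annotation. Its log2 fold change was 0.86 on forward-strand and 0.18 on reverse-strand counts, columns that do not resolve sense from antisense here, since the forward one held 50.1% to 50.3% of strand counts in every library.

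Cdkn2c encodes p18, an inhibitor of Cdk4 and Cdk6. It stood at 1.35, 1.23 and 1.93 CPM across the controls against 3.38, 3.11 and 2.98 across the knockouts. All 3 knockouts exceeded all 3 controls, from 30 to 53 counts per library in control and from 109 to 126 in knockout. The means were 1.50 CPM ± 0.371 (SD, n = 3) and 3.16 CPM ± 0.204, for a log2 fold change of 1.07 (SE 0.26, edgeR adjusted p 0.105). With the block Cdkn2c rose, by the blocked edgeR test (log2 fold change 1.08, SE 0.27, adjusted p 0.0380). The blocked call was lost without replicate 1 (adjusted p 0.139) or replicate 2 (adjusted p 0.311) of both genotypes, and without replicate 3 the adjusted p was 0.0101.

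The retinoblastoma gene Rb1 stood at 6.36, 6.49 and 6.18 CPM across the controls against 3.89, 4.71 and 4.83 across the knockouts. In TMM-scaled CPM the controls lay close together and every knockout was below them (log2 fold change -0.50, SE 0.16, edgeR adjusted p 0.163, and 0.107 with the block). Raw counts overlapped, at 202, 158 and 170 across the controls against 145, 165 and 180 across the knockouts. Over the alternative fits the log2 fold change ran from -0.59 to -0.094. Rb1 overlaps Rcbtb2 and Lpar6 on the opposite strand. E2f1, an activating E2F factor, stood at 1.83, 1.40 and 2.04 CPM across the controls against 3.24, 1.80 and 3.06 across the knockouts (log2 fold change 0.62, SE 0.31, edgeR adjusted p 0.362).

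Cdkn1b stood at 17.4, 16.0 and 17.4 CPM across the controls against 10.9, 15.4 and 15.3 across the knockouts. The groups were barely apart, with knockout replicate 1 the lowest library (log2 fold change -0.29, SE 0.16, edgeR adjusted p 0.409), and the log2 fold change was 0.12 with library totals. Ccne1 and Ccne2, the E cyclins, stayed under 0.8 CPM in every library, and Cdk2, their partner, averaged 3.52 CPM ± 0.756 (SD, n = 3) over the controls against 3.22 CPM ± 0.885 over the knockouts. Over the 11 tested G1 genes the median log2 fold change was 0.28, beside 0.02 over all tested genes, and it was 0.65 with library totals and 0.12 without control replicate 2.

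**Figure D2:**
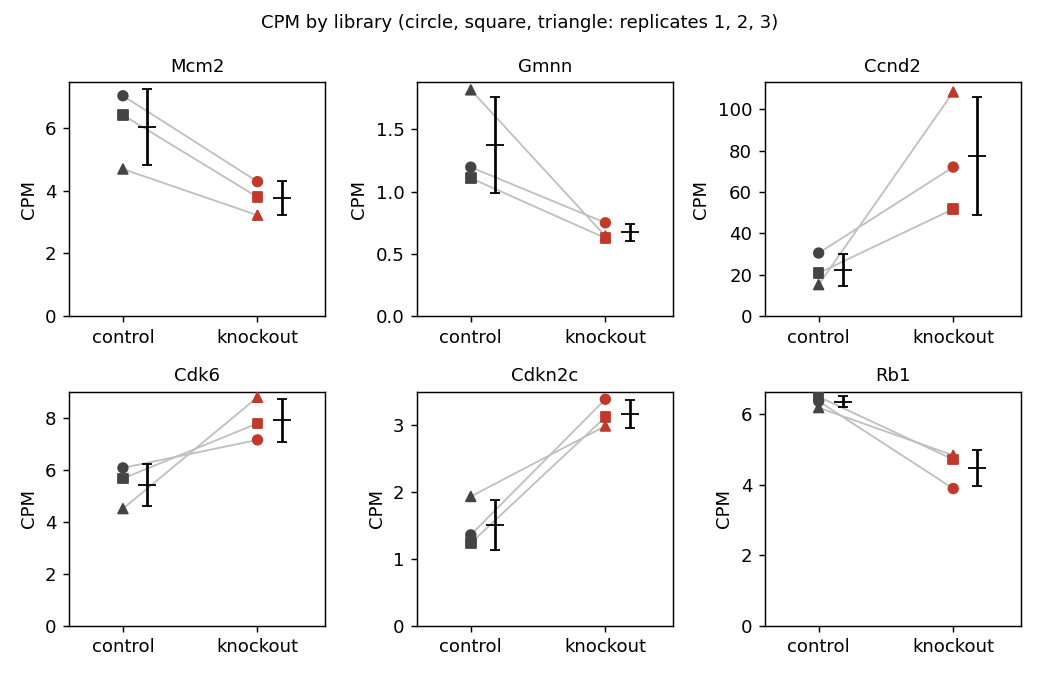
CPM of 6 members in each library (points, with a grey line joining the same replicate number) and the mean ± SD of each genotype (black bars, n = 3), on linear axes that start at 0. In TMM-scaled CPM Mcm2, Gmnn and Rb1 lie lower and Ccnd2, Cdk6 and Cdkn2c higher in all 3 knockouts. Raw counts of Mcm2, Gmnn and Rb1 overlap between genotypes. None of the 6 was called by edgeR's test with TMM factors and no block.

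Markers of other cell types differed among the same libraries, and those of ducts did not share a direction. Spp1 stood at 68.9, 59.9 and 58.0 CPM across the controls against 151, 78.1 and 164 across the knockouts, and it made up most of the difference in the sum of the 7 duct markers (129, 109 and 117 against 215, 131 and 224 CPM). Krt19, a duct keratin, stood at 18.3, 13.3 and 18.1 CPM against 11.7, 7.17 and 9.60. In the edgeR test with the block Spp1 (adjusted p 0.0177), Krt7 (0.0170) and Epcam (0.0491) rose and Krt19 fell (0.00645), Cftr had a log2 fold change of -1.36 (adjusted p 0.132), and none of the 7 was called without the block, with 5 at an unadjusted p under 0.05. The 14 stromal and endothelial markers summed to 183, 44.3 and 63.9 CPM across the controls against 218, 59.7 and 133 across the knockouts, higher in knockout in all 3 numbered pairs. Their part in the values of Ccnd2, Ccnd1, Cdk6 and Cdkn2c was not tested. In such bulk libraries a change in the number of cells of a type and a change in RNA per cell cannot be told apart.

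The genes of S phase to mitosis were low, and replicate 1 was the highest library of either genotype in most of them. Summed over the 15 genes they came to 13.5, 2.51 and 3.34 CPM across the controls against 11.7, 3.997 and 9.01 across the knockouts. Control replicate 1 was 5.39-fold above control replicate 2, and knockout replicate 1 was 2.92-fold above knockout replicate 2. Replicate 1 was the highest control in 13 of the 15 genes and the highest knockout in 12 of 15.

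Mki67, the proliferation antigen Ki-67, stood at 4.54, 0.370 and 0.981 CPM across the controls against 2.63, 0.171 and 1.39 across the knockouts. Counts ran from 6 in knockout replicate 2 to 144 in control replicate 1, and the groups overlapped throughout (log2 fold change -0.50, SE 1.18, edgeR adjusted p 0.893). Top2a, the topoisomerase that untangles replicated chromosomes, stood at 2.93, 0.452 and 0.618 CPM across the controls against 3.32, 1.48 and 2.98 across the knockouts. Control replicate 1 lay among the knockouts, and the other 2 controls were below all of them (log2 fold change 0.94, SE 0.72, edgeR adjusted p 0.581). Without control replicate 1 the log2 fold change of Top2a was 2.24 with an edgeR adjusted p of 0.0434, and with the block but without replicate 1 of both genotypes it was 1.99 with an adjusted p of 0.0447. Both fits lack the only Xist-low control, and with a term for sex over all 6 libraries the log2 fold change was -0.17 (edgeR adjusted p 0.938).

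Cdk1, the kinase of mitotic entry, stood at 0.567, 0.246 and 0.182 CPM across the controls against 0.563, 0.428 and 0.724 across the knockouts (log2 fold change 0.76, SE 0.58, edgeR adjusted p 0.571). Its cyclins were at the limit of counting. Ccna2 stood at 30, 0 and 2 counts across the controls against 10, 5 and 16 across the knockouts, Ccnb1 had 14, 0 and 1 counts and 19, 2 and 11 counts, and Ccnb2 had 11, 0 and 2 counts and 16, 3 and 9 counts. A count of 0 allows up to 3 counts in such a library.

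Bub1b, of the spindle checkpoint, stood at 22, 3 and 3 counts across the controls against 28, 5 and 21 across the knockouts (log2 fold change 0.62, SE 0.86, edgeR adjusted p 0.792). Aurkb and Birc5, which encode parts of the chromosomal passenger complex, had at most 17 and 13 counts in any library. Bub1, Cenpe and the spindle motor gene Kif11 had at most 19 counts in any library, and Plk1, a mitotic kinase, at most 7. Cdc20, which activates the anaphase-promoting complex, had between 2 and 22 counts. Aurka had 15 to 31 counts in every library, or 0.472 to 0.863 CPM, and replicate 1 was its lowest library in either genotype. Over the 9 mitosis genes tested the median log2 fold change was 0.47, and without a filter it was 0.49 over all 15. The median over tested genes was 2.01 without control replicate 1 and -0.52 with a term for sex.

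As shares of all gene counts, given as CPM without TMM factors, the 19 replication genes gave 57.8, 33.7 and 29.6 CPM in the control libraries and 50.3, 39.0 and 44.9 in the knockout libraries (exact two-sided permutation test over libraries, p = 0.7). The 15 mitosis genes gave 13.7, 1.97 and 2.703 CPM in the control libraries and 13.9, 4.47 and 10.4 in the knockout libraries (exact two-sided permutation test, p = 0.5). Each knockout share of mitosis genes was above that of the control of its number, whereas with TMM factors this held in 2 of 3 pairs. The tests do not use the pairing, and the smallest p that 3 against 3 allows is 0.1.

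**Figure D3:**
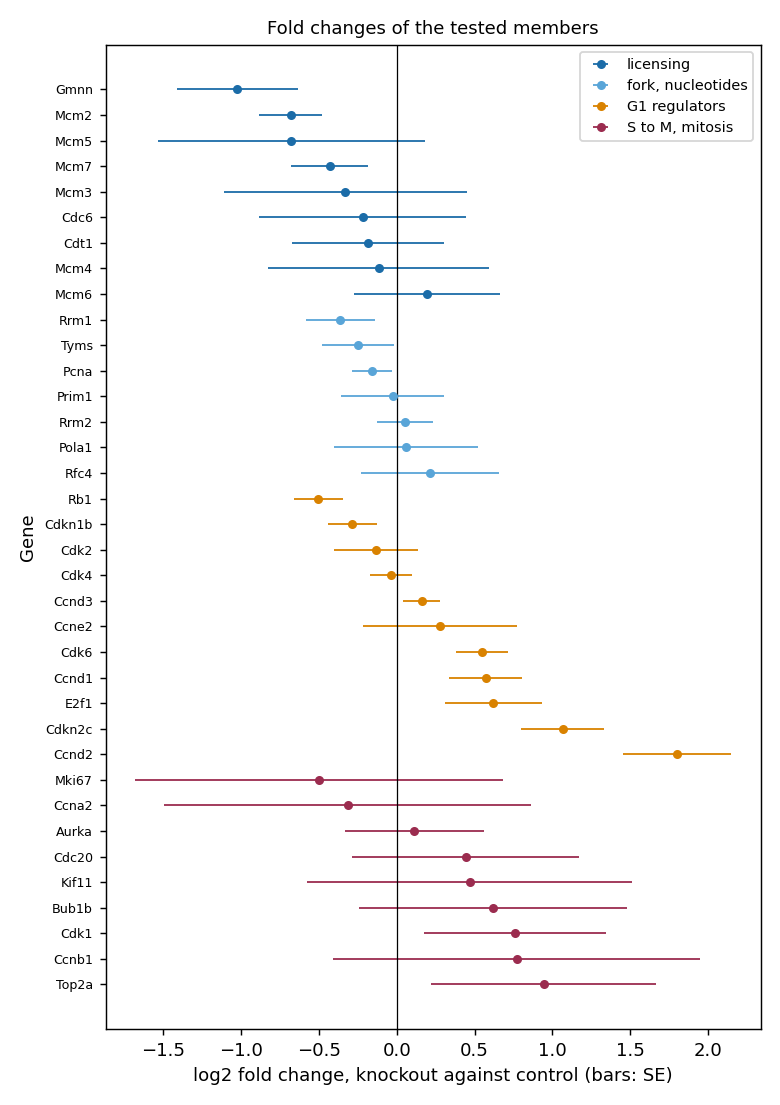
Log2 fold change of the 36 tested members, knockout against control (points, x axis), with the standard error (bars), grouped by role. Ccnd2 at 1.80 and Cdkn2c at 1.07 are the highest points, Gmnn at -1.02 is the lowest, and the bars of most mitosis genes cross 0.

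Leukocyte markers also varied by library, and lymphoid and macrophage genes did so differently. The 23 leukocyte markers summed to 177, 38.7 and 25.4 CPM across the controls against 114, 25.4 and 78.1 across the knockouts. The 7 B cell markers, of which 4 are also in the leukocyte list, summed to 49.0, 8.91 and 0.400 CPM across the controls against 22.2, 2.11 and 0.644 across the knockouts. In control replicate 3 the counts of Cd79b, Ms4a1, Cd22, Blk, Cd3g and Cd8a were all 0, and in knockout replicate 3 those of Cd22, Blk and Cd8a were 0.

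Among knockouts, the myeloid genes Lyz2, Adgre1, C1qa, C1qb, C1qc, Cd68, Csf1r and S100a9 were highest in replicate 3, with Lyz2 at 35.8 CPM and Csf1r at 8.77 CPM there. The myeloid gene S100a8 was highest in replicate 2, at 0.241, 0.371 and 0.322 CPM across the knockouts. C1qc, a complement gene of macrophages, stood at 2.27, 0.329 and 1.49 CPM across the controls against 3.83, 1.31 and 5.50 across the knockouts. With the block C1qc, C1qa, C1qb and Adgre1 rose (edgeR adjusted p 0.0188, 0.0327, 0.0467 and 0.0336), while the B cell genes Cd22 (0.0365) and Blk (0.0352) fell. The part of leukocyte and stromal cells in the mitosis values was not tested.

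**Figure D4:**
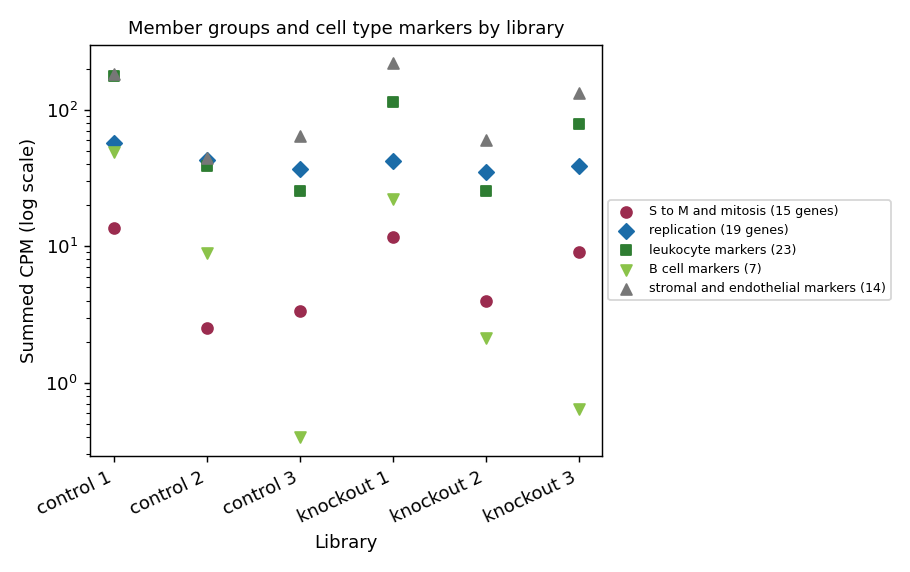
Summed CPM (log axis) of the mitosis and replication members and of leukocyte, B cell and stromal and endothelial markers in the 6 libraries. Mitosis genes are highest in replicate 1 of each genotype, at 13.5 and 11.7 CPM. Leukocyte markers stand at 177 and 114 CPM there, and stromal and endothelial markers at 183 and 218 CPM, also their highest values.

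The rest of the pathway was read from 3 further lists, with 46 genes of replication, 26 of 27 of G1 and 50 of mitosis matched. In the edgeR test none of 38 tested genes of replication, none of 22 of G1 and none of 29 of mitosis was called, against 0.945% of all genes, with 0, 3 and 1 at an unadjusted p under 0.05, against 16.7% of all genes. In replication the 2 smallest p were those of Mcmbp (log2 fold change -0.29, edgeR adjusted p 0.323), a binding partner of the helicase subunits, and Pold2 (log2 fold change -0.42, edgeR adjusted p 0.347), a subunit of DNA polymerase delta. The median log2 fold changes were -0.09, 0.02 and 0.18, beside 0.02 over all tested genes. With the block 3 genes of these lists were called, against 5.99% of all genes, and all 3 were higher, against 3.4%.

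Cdkn1c encodes the Cdk inhibitor p57. It stood at 0.189, 0.123 and 0.109 CPM across the controls against 0.858, 0.542 and 1.10 across the knockouts, with 3 to 6 counts per control library and 19 to 41 per knockout library. No knockout overlapped a control (log2 fold change 2.52, SE 0.56, edgeR adjusted p 0.0755), and with the block Cdkn1c rose with an adjusted p of 0.0296 in the blocked edgeR test.

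Cdkn1a encodes the inhibitor p21. It stood at 3.46, 4.64 and 15.6 CPM across the controls against 7.91, 7.74 and 18.7 across the knockouts, so that replicate 3 was the highest library of both genotypes and each knockout exceeded the control of its number. It was not called without the block (edgeR adjusted p 0.792) and rose with it (log2 fold change 0.70, SE 0.18, adjusted p 0.0460).

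Pttg1 encodes securin, which restrains chromosome separation. It stood at 1.64, 1.60 and 1.09 CPM across the controls against 3.46, 2.60 and 2.76 across the knockouts, without overlap (log2 fold change 1.02, SE 0.28, edgeR adjusted p 0.130, and 0.0444 with the block). None of these 3 blocked calls held in every fit that also left out 1 replicate number. Without replicate 1 of both genotypes the blocked adjusted p was 0.0784 for Cdkn1c, 0.186 for Cdkn1a and 0.140 for Pttg1.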

How the data were processed

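The authors deposited 1 table of raw gene counts per library, without a header, and the submitters' processing notes name STAR 2.7.10a and the builds GRCm39 and mm39. The annotation is not given in the sources used here. The unstranded counts were used, and the 4 rows of reads outside genes were left out. Symbols, exonic lengths and overlaps came from GENCODE M21 (GRCm38), in which 52081 of 55414 identifiers (94.0%) were found, and promoter sequences from RefSeq (GRCm38.p6). Because the builds differ, these serve for names and letters alone.

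Gene counts ran from 31019500 to 34041901 per library, and intervals and floors cover counting error only. The closest 2 libraries differed by a chi-square of 26.3 per degree of freedom, so all 6 were kept as samples. The fit used edgeR 4.0.16 in R 4.3.3 with filterByExpr, TMM, robust dispersions and the quasi-likelihood F test, with Benjamini-Hochberg adjustment over 13115 genes. The SE is the log2 fold change divided by the square root of F. The procedure was tested on simulated data. Alternatives used DESeq2 1.42.0, limma-voom (limma 3.58.1), other scalings and filters, strand columns, a sex term from Xist, left-out libraries and the replicate block.

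Same-numbered libraries deviated together from their group means across genes, with correlations of 0.63, 0.455 and 0.285 in pairs 1 to 3, against -0.496 to 0.21 for other pairs. Since every pair exceeded 0.1, the numbers were taken to pair the preparations, a pairing that comes from the data. The unmatched pair of control 3 and knockout 2 also exceeded 0.1, at 0.21. The labels do not say what a number marks. The block was chosen from the same values it was then used to test, so blocked p-values do not allow for that choice.

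Members and lists were chosen with earlier results of these data known. Named were members called in either fit, in each role the 3 with the smallest p and the 2 most abundant, and in each further list the called genes or the 2 with the smallest p. Other members are named with values chosen after they were seen, and Ccnd1, Rb1, E2f1 and Cdkn1b were added so. In the further lists, 1 of 123 symbols, Lin54, was not matched.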

Additional observations from a re-analysis of the deposited data

How the results depend on the processing

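Depth limits the mitosis genes most, since 6 of 15 were too low to test and others rest on fewer than 20 counts per library. The 124 genes called overall became 1519 with library totals, 850 without a filter, 210 when every library had to hold at least 10 counts, 594 with DESeq2's Wald test, 21 with the sex term and between 20 and 461 without 1 library. With the replicate block 785 were called, and 396, 100 and 832 without replicate 1, 2 or 3 of both genotypes.

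None of the members was called at first, and 0 were called with the sex term. There were 4 with library totals (Ccnd2, Ccnd3, Cdk6 and Cdkn2c), 2 without a filter (Ccnd2 and Cdkn2c), 2 with DESeq2, 2 with the replicate block, and 1 (Top2a) and 3 (Ccnd2, Cdkn2c and Mcm2) with the block but without replicate 1 or 3, and 0 without replicate 2. There were between 0 and 2 when 1 library was left out (Ccnd2 and Top2a without control replicate 1). Of the further genes, 0 became 3 with library totals, 1 without a filter, 1 with DESeq2, 3 with the replicate block, 1 with forward-strand counts and 1 with the block but without replicate 3.

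The median log2 fold change of replication genes was -0.20 and moved to 0.19 with library totals, -0.63 with the sex term and between -0.51 and -0.0060 without 1 library. That of G1 genes was 0.28 and moved to 0.65 with library totals, to 0.46, 0.047 and 0.15 with the replicate block without replicate 1, 2 or 3, and between 0.12 and 0.48 without 1 library or both of replicate 1, the latter an alternative chosen after seeing the data. That of mitosis genes was 0.47 and moved to -0.52 with the sex term and between 0.17 and 2.01 without 1 library.

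The sign of the log2 fold change turned with library totals for Pcna (0.25), Rrm1 (0.021), Tyms (0.16), Cdkn1b (0.12) and Mcmbp (0.13), with the sex term for Bub1b (-0.51) and Top2a (-0.17), and with the block without replicate 2 for Rrm2 (-0.049). Without 1 library it ran from -1.33 to 1.02 for Mki67, from -0.039 to 0.22 for Rrm2 and from -0.015 to 1.50 for Cdkn1a. The difference in the share of counts in replication genes was 4.36 CPM, -18.4 when acinar markers and the 20 most abundant genes were left out of the total, and between -1.05 and 13.1 without 1 library. The cause of these changes was not tested.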
